A study of Arabidopsis thaliana with 12 samples.

Results

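Transcripts of 3 nuclear genes of plastid thiol redox control were described in Arabidopsis thaliana after a night in darkness: NTRC (AT2G41680), a peroxiredoxin gene (AT3G52960) and SRX (AT1G31170). They were taken as the genes named alone on a probe of the array. Where a gene had several such probes the brightest was to be used, but each of the 3 had 1 probe, so no probe was chosen by its values. The 3 genes themselves were chosen with earlier results of these data known, so their p-values are not independent of that choice. They are 3 of 691 genes with a probe of their own, and all 3 were above 0 in all 12 columns of values. WT of the Columbia 0 ecotype was compared with prors1, a mutant that the labels describe as lacking prolyl-tRNA synthetase, which loads proline onto its transfer RNA. Both groups were dark adapted overnight, and the labels give no age, tissue or allele. Each group had 6 columns, and columns 1 and 2, 3 and 4, and 5 and 6 were so alike that each pair was counted as 1 array, leaving 3 arrays per group. The labels do not state whether the arrays hold RNA of separate plants, so every p-value rests on a spread between arrays that could be technical alone.

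Peroxiredoxins are thiol enzymes that reduce hydrogen peroxide and organic peroxides at a reactive cysteine. NTRC joins an NADPH-dependent thioredoxin reductase and a thioredoxin in a single protein and passes electrons from NADPH to some plastid peroxiredoxins. Because it draws on NADPH and not on ferredoxin reduced by photosystem I, it can work in darkness. Sulfiredoxin, the product of SRX, uses ATP to bring back some peroxiredoxins whose cysteine has been oxidised to the sulfinic acid. In Arabidopsis it is found in plastids and mitochondria. AT3G52960 encodes a plastid peroxiredoxin, and whether NTRC or sulfiredoxin acts on it was not tested here.

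SRX, the repair enzyme gene, was higher in prors1, whereas NTRC and AT3G52960 did not pass the test. After quantile normalization the SRX probe rose 2.58-fold, a log2 fold of 1.37 ± 0.23 (SE, 3 arrays per group, limma adjusted p = 0.00696), and its 95% interval ran from 0.84 to 1.90. NTRC had a log2 fold of 0.24 ± 0.25 (limma adjusted p = 0.516) and AT3G52960 of -0.16 ± 0.29 (limma adjusted p = 0.726). Of the 2908 probes tested, 26.3% passed at an adjusted p under 0.05: 12.8% were higher and 13.5% lower in prors1. A call for 1 gene in 3 is near that background share.

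Signal differed between the groups before any gene was considered. The total intensity of a column was 2312 to 2840 in WT and 2632 to 3456 in prors1, on a scale that ends at 100 for a single probe. The median of the values above 0 was 0.224 to 0.289 in WT and 0.407 to 0.520 in prors1, so on the deposited values the median log2 fold of all tested probes was 0.77. Changes are therefore given relative to the other probes. The source field describes all 12 samples as WT, and only the titles separate the groups. No probe (0) names PRORS1, so the level of the mutated gene gave no check of those titles. None (0) of 23 marker genes of leaf, root, guard cell, phloem, seed and flower had a probe of its own. In bulk RNA, fewer cells of a type and less RNA per cell cannot be told apart.

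On the deposited scale the SRX probe read 0.0719, 0.0758 and 0.0788 on WT arrays 1 to 3 and 0.431, 0.463 and 0.285 on prors1 arrays 1 to 3. The prors1 arrays all lay above the WT arrays, and prors1 array 3 was the lowest of them. The means were 0.0755 ± 0.0034 in WT and 0.393 ± 0.095 in prors1 (SD, n = 3). This separation was common on the array, since 52.5% of the tested probes had all prors1 arrays above all WT arrays on the deposited values. After quantile normalization the SRX arrays still did not overlap: their log2 levels spanned -3.42 to -3.13 for WT and -2.13 to -1.71 for prors1.

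The NTRC probe, for the reductase, read 0.293, 0.217 and 0.228 in WT and 0.477, 0.613 and 0.508 in prors1. These arrays did not overlap either, with means of 0.246 ± 0.041 in WT and 0.533 ± 0.071 in prors1 (SD, n = 3). After quantile normalization the groups overlapped: their log2 levels spanned -1.92 to -1.30 for WT and -1.58 to -1.19 for prors1. The 95% interval of the normalized log2 fold ran from -0.34 to 0.82, so these arrays leave room for a small fall as well as for a rise.

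The AT3G52960 probe, for the peroxiredoxin, read 0.155, 0.374 and 0.206 in WT and 0.419, 0.328 and 0.397 in prors1. WT array 2 lay inside the range of the prors1 arrays, so the groups overlapped on the deposited scale. The means were 0.245 ± 0.11 in WT and 0.381 ± 0.047 in prors1 (SD, n = 3). The 95% interval of the normalized log2 fold ran from -0.83 to 0.52.

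**Figure D1:**
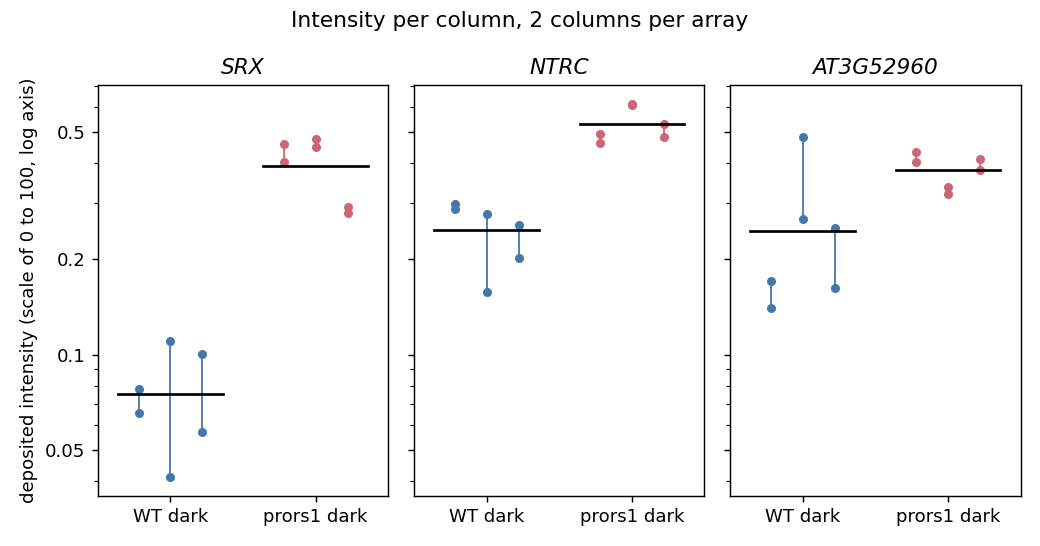
Deposited intensity (log axis, scale of 0 to 100) of the SRX, NTRC and AT3G52960 probes in WT and prors1 after a night in darkness. Each vertical line joins the 2 columns of 1 array, and horizontal bars are means over 3 arrays. SRX means were 0.0755 and 0.393 with no overlap, while for AT3G52960 the second WT array (0.374) lay among the prors1 arrays.

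If the pairing of columns holds, the 2 columns of an array give a view of the reading error of each probe. For SRX they differed 1.19-, 2.67- and 1.76-fold on WT arrays 1 to 3, but only 1.05- to 1.14-fold on the prors1 arrays. On WT array 2 the log2 difference of 1.42 exceeded 0.99, the 90th percentile over all tested probes of that array. For AT3G52960 the columns of WT arrays 2 and 3 differed 1.81- and 1.55-fold, and for NTRC those of WT array 2 differed 1.76-fold. All 3 probes were thus least repeatable on WT array 2. Leaving out that array gave log2 folds of 1.25 for SRX (limma adjusted p = 0.0182), 0.068 for NTRC and 0.054 for AT3G52960, so the small fold of NTRC shrank further and that of AT3G52960 changed sign. With any other array left out SRX was also called, at 1.28 to 1.53.

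The scaling changed the call of NTRC and the sign of AT3G52960, and left SRX called. On the deposited values the log2 folds were 2.42 ± 0.29 for SRX (limma adjusted p = 0.000701), 1.14 ± 0.27 for NTRC (adjusted p = 0.00935) and 0.76 ± 0.35 for AT3G52960 (adjusted p = 0.0971). There 45.8% of all tested probes were called, 43.0% higher in prors1 and 2.82% lower, so the call of NTRC was that of a large share of the array. Median scaling gave 1.52, 0.24 and -0.14, and cyclic loess 1.42, 0.25 and -0.20, for SRX, NTRC and AT3G52960. SRX alone of the 3 passed under these 2 scalings, with adjusted p of 0.00493 and 0.00708.

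**Figure D2:**
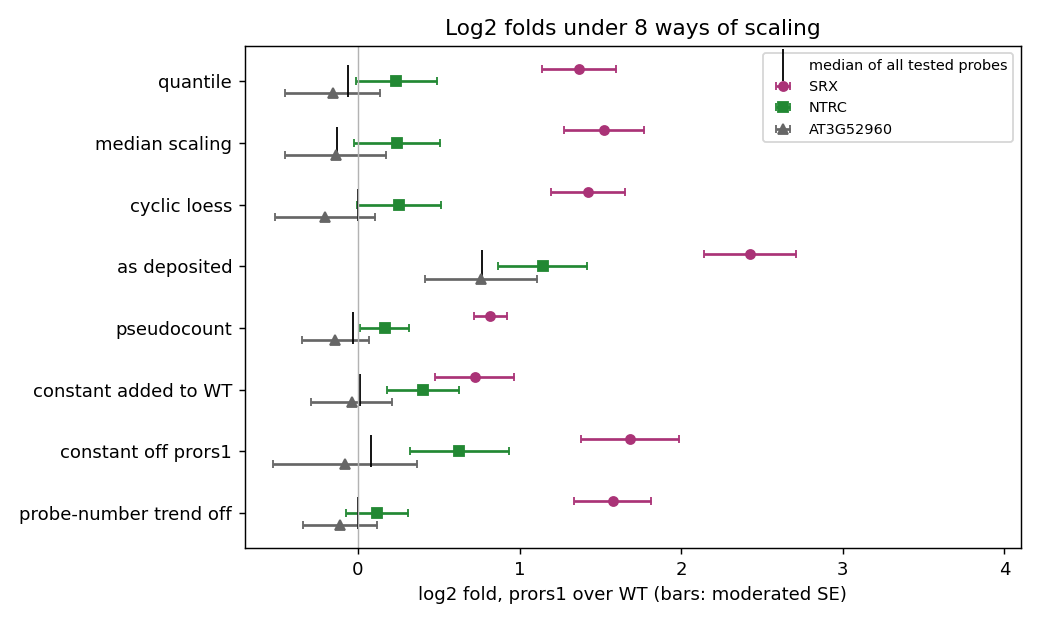
Log2 fold of prors1 over WT for the SRX, NTRC and AT3G52960 probes under 8 ways of scaling, with the moderated SE as bars and the median of all tested probes as a vertical tick. SRX lies right of that median throughout (0.72 to 2.42), while AT3G52960 (0.76) lies at the median (0.77) on the deposited values.

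The deposited shift depended on brightness, and the 3 probes were read against probes of like brightness. When the tested probes were split into 8 classes by mean log2 intensity, the median deposited log2 fold ran from 1.06 in class 3, counted from the dimmest, to 0.018 in class 8. SRX fell in class 2, whose median log2 fold was 1.03, against its own 2.42. NTRC fell in class 5 with a median of 0.87 (its own log2 fold was 1.14), and AT3G52960 in class 4 with a median of 0.89 (its own was 0.76). In class 2, 51.8% of probes were called higher on the deposited values and 14.0% after quantile normalization. The prors1 columns helped to place each probe in its class. The WT intensity of SRX (0.0755) lay within the span of class 1 (0.0171 to 0.145), whose median log2 fold was 0.97. Probes of like WT intensity were thus not compared.

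**Figure D3:**
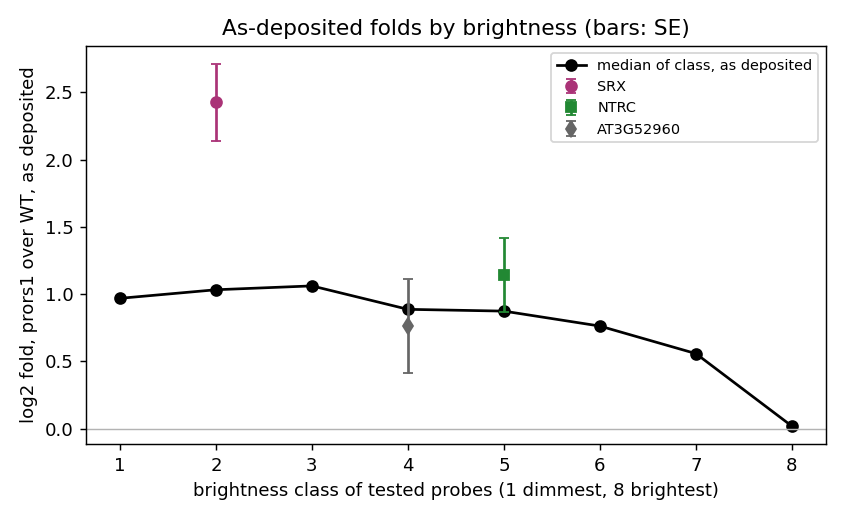
Median log2 fold of prors1 over WT on the deposited values in 8 brightness classes of tested probes (black), with the 3 redox probes and their SE in the class each belongs to. SRX (2.42) lies above its class (1.03), whereas NTRC (1.14) and AT3G52960 (0.76) lie near theirs (0.87 and 0.89).

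A difference in intensity, unlike a ratio, does not grow when the WT level is dim. SRX differed by 0.317, NTRC by 0.287 and AT3G52960 by 0.136 on the deposited scale. Over the 2908 tested probes the median difference was 0.166 and the quartiles were 0.0360 and 0.329, so all 3 genes lay between the quartiles. The large ratio of SRX thus came with a WT intensity (0.0755) below the median difference of the array. When a constant of 0.158 was added to every WT column, the log2 fold of SRX was 0.72 ± 0.24 (limma adjusted p = 0.0454). When each prors1 column was lowered by its own median difference (0.109 to 0.197), it was 1.68 ± 0.30 (adjusted p = 0.0126). A part of an additive background in these readings was not tested beyond this. NTRC had 0.40 and 0.63 under these 2 settings and AT3G52960 -0.039 and -0.079, and neither was called.

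Within an array, ratios between the 3 probes do not depend on a multiplying factor common to a column. They do depend on an added constant or on a shift that varies with brightness. With the constant added to WT, the log2 folds of NTRC, AT3G52960 and SRX were 0.40, -0.039 and 0.72. With it taken off prors1 they were 0.63, -0.079 and 1.68. The ratios below are of the deposited values. The log2 ratio of NTRC to SRX was 2.03, 1.63 and 1.58 on WT arrays and 0.15, 0.40 and 0.83 on prors1 arrays, so the groups did not overlap and the ratio fell by 1.28. The log2 ratio of AT3G52960 to SRX was 1.11, 2.41 and 1.41 in WT and -0.039, -0.50 and 0.48 in prors1 and fell by 1.66, again without overlap. In both cases a two-sided exact permutation test over arrays gave p = 0.1, the smallest that 3 arrays against 3 allow, and 0.15 after adjustment over the 3 ratios. After quantile normalization the changes of these 2 ratios were -1.13 and -1.53. With the constant added to WT, the folds of NTRC and SRX lay much closer (0.40 and 0.72). Both ratios reuse the SRX readings given above, so their fall is no evidence beyond the SRX change. The log2 ratio of NTRC to AT3G52960 was 0.10 ± 0.86 in WT and 0.48 ± 0.37 in prors1 (SD, n = 3). Its groups overlapped, and the exact permutation test gave p = 0.6 (0.6 adjusted).

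**Figure D4:**
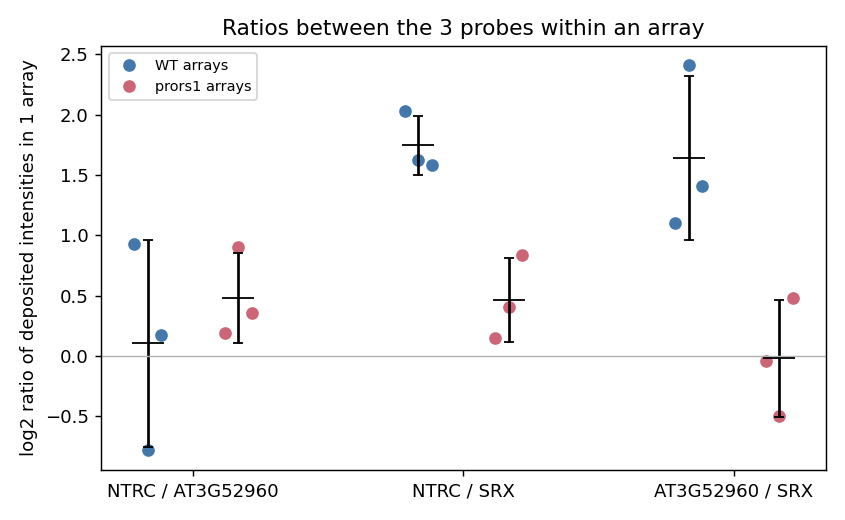
Log2 ratio of deposited intensities between pairs of the 3 redox probes within each array, with points for the 3 WT and 3 prors1 arrays and bars for mean and SD. Both ratios with SRX as denominator are lower on all prors1 arrays than on any WT array, and the ratio of NTRC to AT3G52960 overlaps.

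The thiol redox network around these genes was sparsely covered. Of 98 further genes in 6 lists, 5 had a probe of their own and 4 were tested: 2 were lower in prors1 and 0 higher, where 13.5% of all tested probes were lower and 26.3% changed either way. Both calls, those of AT2G04700 and PRK, ended under several settings given below. The median log2 fold of the 4 was -0.50, against -0.06 for all tested probes. The lists of cytosolic and mitochondrial thioredoxins, other thiol peroxidases, glutaredoxins and glutathione enzymes, and other scavengers had 0 tested members.

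AT2G04700 was the only measured gene of 22 in the list of plastid thioredoxins and their reductases. It read 0.184, 0.109 and 0.238 in WT and 0.181, 0.0952 and 0.160 in prors1, so the groups overlapped on the deposited scale. Relative to the other probes it was lower in prors1, with a log2 fold of -1.37 ± 0.39 (limma adjusted p = 0.0353). The direction was the same, but the call was absent, on the deposited values (-0.27, limma adjusted p = 0.573) and under median scaling (-1.17, adjusted p = 0.0758). The call also ended without WT array 1 or 3 or prors1 array 1 or 2 (adjusted p = 0.0845, 0.0918, 0.0750 and 0.111).

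Of 27 plastid enzymes known as thioredoxin targets, 3 were tested. PRK, phosphoribulokinase, makes the carbon dioxide acceptor of photosynthesis. It was lower after quantile normalization (log2 fold -0.75 ± 0.23, limma adjusted p = 0.0442), with a mean of 1.13 ± 0.039 in WT (SD, n = 3) and readings of 0.877, 1.07 and 0.811 on the prors1 arrays. All prors1 arrays lay below all WT arrays, as they did for 5.47% of the tested probes. Under median scaling its log2 fold was larger, at -1.20 (limma adjusted p = 0.00805). Its call ended on the deposited values (-0.30, adjusted p = 0.359), under cyclic loess (-0.60, adjusted p = 0.0988) and without any 1 array except WT array 2 (adjusted p = 0.0800 to 0.136). AT5G58330, the NADP-dependent malate dehydrogenase that carries reducing power out of the plastid, had a log2 fold of 0.044 ± 0.28, with means of 0.374 ± 0.14 and 0.633 ± 0.17 (SD, n = 3). Its sign turned under median scaling (-0.092). CHLM, the methyltransferase of chlorophyll synthesis, had -0.25 ± 0.23, with means of 0.379 ± 0.13 and 0.544 ± 0.071, and its sign turned on the deposited values (0.57). SBPASE, the sedoheptulose-bisphosphatase, was listed at 0 in all but 1 of 12 columns and was not tested.

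**Figure D5:**
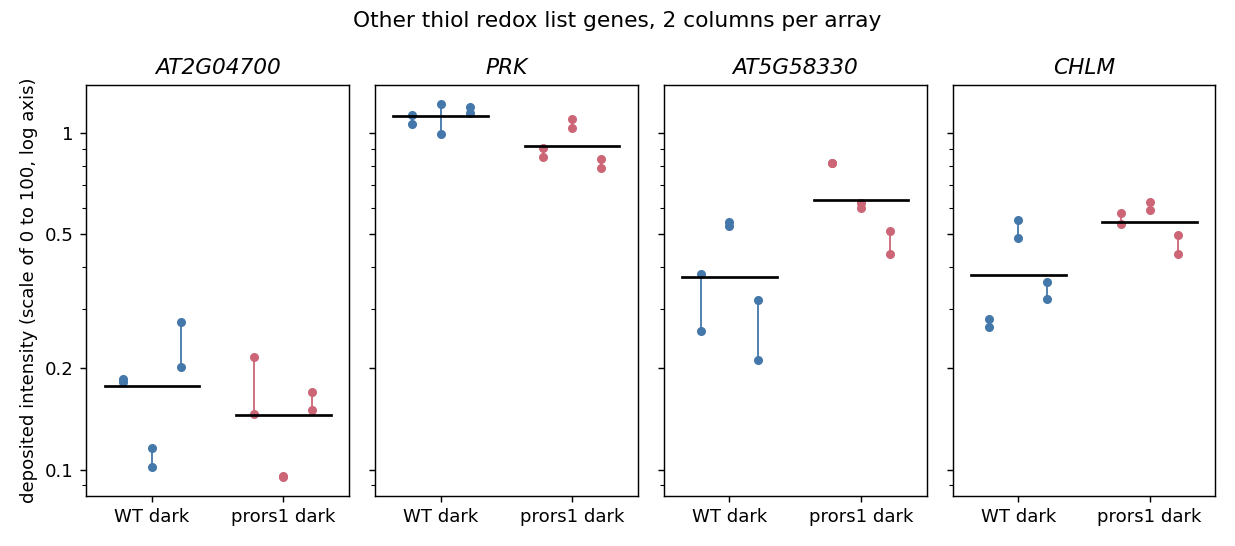
Deposited intensity (log axis, scale of 0 to 100) of the 4 tested thiol redox list genes, with lines joining the 2 columns of an array and bars at the mean over 3 arrays. AT2G04700 overlaps between the groups, whereas the PRK arrays are lower in prors1 (0.919 against 1.13 on average), though single PRK columns overlap.

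The 3 genes did not share a pattern over the 12 columns, which were counted as 6 arrays of 2 columns each and are not independent. These correlations describe the columns alone. On quantile-normalized log2 values NTRC and AT3G52960 correlated at -0.58, NTRC and SRX at 0.25, and AT3G52960 and SRX at -0.12. Among 542 other genes with a probe above 0 in all columns, AT2G25870 (r = 0.94), AT2G31920 (0.92) and AT1G44830 (0.92) were most like SRX. AT2G25870 has 2 probes of its own that disagree, and the one brighter by mean over all 12 columns was used. It was the brighter in prors1 only (normalized log2 level -1.34 against -1.87) and the dimmer in WT (-2.61 against -1.67). The choice thus rested on the group where it is high. The other probe correlated with SRX at -0.23 and had a log2 fold of -0.20 (limma adjusted p = 0.626). After the group means were taken off, the 3 genes most like SRX correlated with it at 0.79, 0.67 and 0.57. Part of the likeness was therefore the difference between the groups. NTRC was most like AT2G46050 (0.86), AT5G53080 (0.83) and AT3G09050 (0.81), with 0.83, 0.82 and 0.80 within groups. AT3G52960 was most like AT3G27110 (0.91), AT2G39100 (0.82) and AT5G42680 (0.80), at 0.91, 0.81 and 0.86 within groups. All these genes were picked for high correlation on the same columns, so the values within groups are no separate check.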

How the data were processed

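Arrays of a single channel were hybridised with total RNA. The authors deposited 1 column of linear intensity per sample, from 0 to 100. The sources used here do not give their scanner, background correction or scaling. All 12 columns matched a sample and 0 were left over. Zeros were treated as missing. Values were log2 transformed, quantile normalized (limma 3.58.1, R 4.3.3) and averaged over the 2 columns of an array, which correlated at 0.913 to 0.973, against 0.848 to 0.913 for other columns of a group. Probes above 0 in at least 4 of 6 columns per group were tested (2908 of 3439). Group was the only term in limma (lmFit, eBayes). Its two-sided p-values were adjusted by Benjamini-Hochberg over the 2908 probes. The procedure was tested on simulated data. It called 0 of 67 probes changed 1.5-fold, 11.9% of 67 changed 2-fold and 69.7% of 66 changed 4-fold, with 4 false calls. All other probes were left unchanged, whereas 26.3% were called in the data, so the adjustment was stricter in the simulation. Column noise was added to an array spread that already held such noise, and no shift with brightness was simulated. These shares are therefore no measure of the power of the test on the data. Small changes can still go uncalled.

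Probes were named by the platform annotation of 2016 and the TAIR10.1 gene table: 692 name 1 gene, and 690 of these matched. Members and lists were chosen with earlier results of these data known. Named are the 3 members, every tested list gene, and for each member the 3 genes of highest correlation. Alternatives covered scaling, zeros, filters, columns, blocks, variance model and left-out arrays. Averaging several probes of a gene did not apply to the 3 members, which have 1 probe each. No sequences or coordinates were used here.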

Additional observations from a re-analysis of the deposited data

Results flagged for a closer look

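The AT3G52960 probe read 0.482 in WT column 3, above the other 5 WT columns, and its gap to the next of them was 0.628 of the group's range, just over Dixon's critical value for 6 samples. Of 6 such sets of columns for the 3 genes, this was the only 1 past its limit. Chance marks about 1 in 20 sets of separate samples, and paired columns are not separate, so that rate is only a guide. The other column of the same array read 0.267.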

How the results depend on the processing

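Additive constants and the probe-number trend were tried after the data were seen. SRX was called higher under all 20 alternatives (0.72 to 2.42). NTRC was positive under all 20 and called under 1, the values as deposited (1.14). AT3G52960 was called under 0 and positive under 3: as deposited (0.76), without WT array 2 (0.054) and without prors1 array 2 (0.016). With 1 array left out, log2 folds ran from 1.25 to 1.53 for SRX, 0.068 to 0.37 for NTRC, -0.36 to 0.054 for AT3G52960 and -0.18 to 0.19 for AT5G58330. AT5G58330 also turned under median scaling (-0.092), and CHLM as deposited (0.57) and with the constant added to WT (0.036) or taken off prors1 (0.076). The call of AT2G04700 also ended with a pseudocount (-0.88), and its probe was not tested where the dimmest probes were left out. That of PRK also ended with a constant added to WT (-0.49) or off prors1 (-0.57) and the trend off (-0.55). Changed probes numbered 764 (372 higher, 392 lower), 1332 as deposited (1250 and 82), 587 with the constant off prors1 (370 and 217), 1443 with 6 columns as separate samples and 398 to 575 with 1 array left out (lowest without prors1 array 2). Fewer arrays widen the error and separate columns add degrees of freedom by construction; other causes were not tested. A replicate block on the array number gave 840 calls, which include 705 of the 764, and a block on the replicate number of 6 separate columns gave 1532. Deviations of same-numbered arrays correlated at 0.191, 0.0658 and 0.211, and those of differently numbered arrays at -0.185 to -0.018. Each array thus correlated best with its own number. Whether the numbers mark pairs cannot be told from these values, and the main fit holds no pairing. Neither block changed a call of the 3 genes (SRX limma adjusted p = 0.0154 and 0.00143). That of PRK ended with the block on the array number (0.0517) but not with separate columns (0.00226). AT2G04700 stayed called under both (0.0125 and 0.000394). The number of arrays limits precision.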
